A study of Mus musculus with 6 samples.

Results

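The genes described here are 32 genes of the p53 pathway in mouse HOXB-8 cells with and without a knockout of Irf2. They are Trp53, which encodes p53, with its regulators and a set of its known target genes; the BCL2 family was left out. The members were given as a list of names, drawn up with earlier results of these data known, and all 32 were found by Entrez gene ID among the 36528 gene IDs of the count tables. RNA from 6 bone marrow derived samples was sequenced, 3 labelled Parental and 3 labelled IRF2_KO. HOXB-8 cells are myeloid progenitor lines held in an immature state by an expressed Hoxb8 gene. Parental cells were Irf2 wild type and, per the extraction protocol, carried a control guide RNA named Luc. IRF2_KO cells carried the Irf2 guide named gRNA2. The same protocol calls the lines iMACs, and nothing in it says whether a group was a single clone or whether its 3 samples were separate cultures, so the p-values reflect the spread among these 6 libraries, which may be technical.

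p53 is a transcription factor held at a low level by MDM2, a ubiquitin ligase that p53 itself induces. DNA damage, loss of nutrients or an oncogene's signal frees p53, which then raises genes that halt the cell cycle, repair DNA, adjust metabolism or start cell death. The protein ARF, one of the products of Cdkn2a, blocks MDM2 and so shields p53. In myeloid progenitors p53 and its target p21, encoded by Cdkn1a, are known for restraining division. Control of p53 acts largely on the protein, which RNA sequencing does not measure.

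The libraries held 29070160 to 39925038 counts, so that 3 counts corresponded to 0.0751 to 0.103 CPM. CPM are counts brought to a common library size, here with the effective totals from TMM normalization, a correction for differences in RNA composition. Irf2 transcript was measured at 41.1, 42.4 and 41.1 CPM in Parental and 40.3, 37.0 and 40.1 CPM in IRF2_KO, and did not pass edgeR's test described further on (adjusted p = 0.209). A guide can disrupt a reading frame without lowering the transcript, so this level does not check the labels. Marker genes moved with the genotype. The summed level of 7 interferon response genes was 94.4 to 97.9 CPM in Parental and 613 to 625 CPM in IRF2_KO, and all 7 rose. Of 9 macrophage markers 6 were testable and 5 rose, with sums of 285 to 290 and 686 to 702 CPM; C1qb was at 0 in all 6 libraries, and no library held more than 1 read of C1qa or of C1qc. Of 6 progenitor markers 5 were testable and 4 fell, with sums of 878 to 880 and 609 to 643 CPM, while Hoxb8 did not pass. Of 9 neutrophil and granule genes 3 rose and 3 fell, with sums of 11315 to 12318 and 9391 to 10871 CPM. Of 8 lymphoid, erythroid, epithelial and stromal markers only Pecam1 was testable, and it rose; their sums were 0.530 to 0.801 and 1.24 to 1.63 CPM, with Cd3e, Ms4a1 and Hba-a1 at 0 throughout. The part of these shifts in the results that follow was not tested. In bulk RNA, a change in the share of cells of one kind and a change of RNA per cell cannot be told apart.

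The p53 genes did not move as a block. Of the 32, 29 had enough reads to be tested; 12 rose in IRF2_KO, 7 fell and 10 did not pass. The cyclin-dependent kinase inhibitor p21 (Cdkn1a), the antiproliferative gene Btg2 and the death receptor Fas rose 1.89-fold, 2.57-fold and 1.96-fold, Zmat3 rose 1.68-fold, and Cdkn2a was 3.42-fold lower. Trp53 itself was 1.20-fold lower. A gene was called by edgeR's quasi-likelihood F-test at a Benjamini-Hochberg adjusted p under 0.05, adjusted over all genes tested. The 19 called members made up 65.5% of those tested. Changes were widespread in these libraries: 47.2% of the 13353 genes tested were called, 23.6% higher and 23.6% lower. At 1.5-fold or more, 4 members rose and 2 fell, which was 20.7% of those tested beside 12.3% of all genes. In 20 members (69.0%) the 3 Parental and 3 IRF2_KO values did not overlap, beside 54.0% of all genes. The median log2 fold change of the tested members was 0.08, beside -0.01 for all genes, and called members had a median size of 0.37, beside 0.32 for all called genes.

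**Figure D1:**
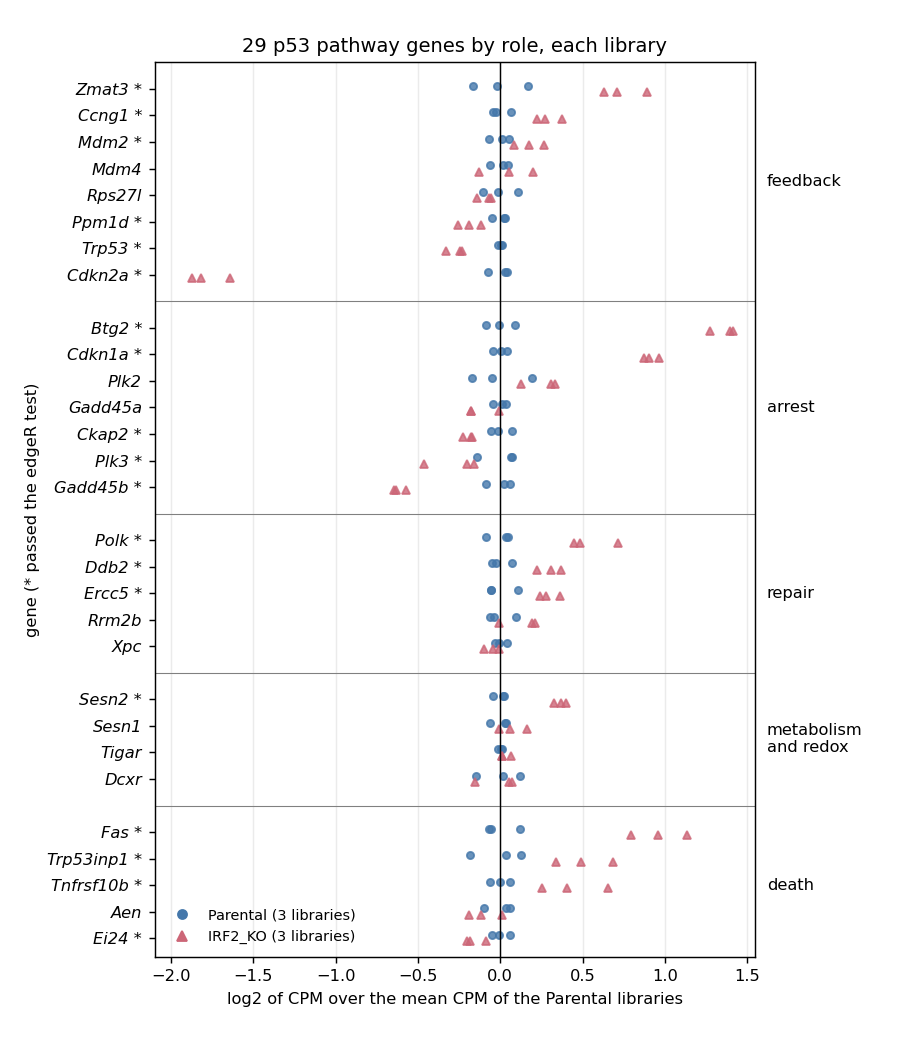
Level of each of 29 testable p53 pathway genes in each library, as log2 of its CPM over the mean CPM of the 3 Parental libraries, grouped by role; circles are Parental, triangles IRF2_KO, and asterisks mark genes past the edgeR test. The IRF2_KO triangles lie far to the right for Btg2, Fas and Cdkn1a and far to the left for Cdkn2a, while most other genes stay close to 0.

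Per gene length, the members spanned a wide range of levels. These levels are the authors' size-factor-adjusted RPKM (reads scaled for gene length and for depth). In Parental cells the highest was Rps27l, a small ribosomal protein paralog, at 167 ± 12.8 RPKM (SD, n = 3), followed by Cdkn1a at 121 ± 3.31. Ccng1 at 66.8 ± 2.96 and Trp53 at 66.7 ± 0.374 came next, and their libraries overlapped. Ei24 at 53.8 ± 2.15 and Cdkn2a at 37.0 ± 1.52 stood clear of them and of each other. A middle group from Mdm2 at 24.5 ± 1.08 to Dcxr at 21.4 contained several neighbours whose libraries overlapped, among them Mdm2 and Sesn2, Tigar and Gadd45a, and Gadd45a and Dcxr. The lowest testable members were Btg2 at 1.64, Zmat3 at 1.09, Plk2 at 0.936 and Tnfrsf10b at 0.426 RPKM. In IRF2_KO, Cdkn1a at 229 ± 8.87 RPKM passed Rps27l to become the highest. Cdkn2a moved from rank 6 to rank 14, at 10.9 ± 0.970 RPKM, Gadd45b from rank 15 to rank 21, and Btg2 from rank 26 to rank 22.

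**Figure D2:**
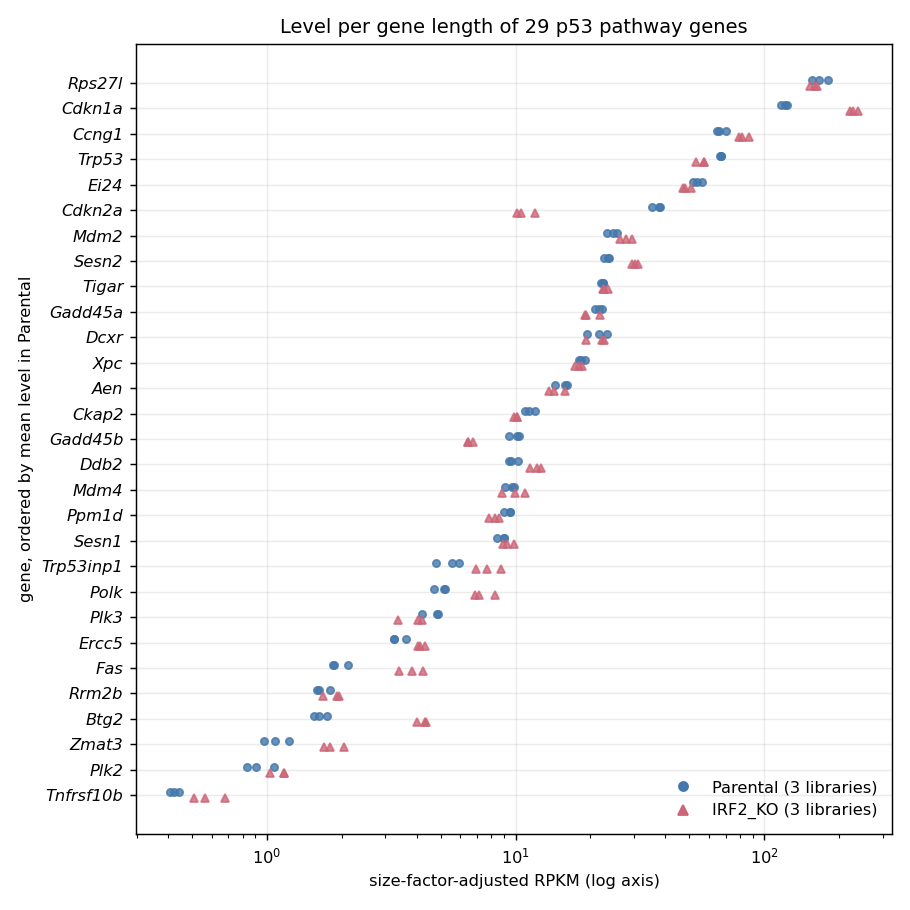
Level per gene length (size-factor-adjusted RPKM, log axis) of the 29 testable p53 pathway genes in each library, ordered by mean level in Parental; circles are Parental and triangles IRF2_KO. Cdkn1a at 121 ± 3.31 RPKM in Parental and 229 ± 8.87 in IRF2_KO and Cdkn2a at 37.0 ± 1.52 and 10.9 ± 0.970 change place most visibly among the abundant genes.

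The first group of members sets the level and activity of p53. Of these 8 genes 3 rose, 3 fell and 2 did not pass, a called share of 75% beside 47.2% of all genes tested. Trp53 (Entrez 22059; GRCm38 chr11:69580348-69591873) was measured at 155, 157 and 157 CPM in Parental and 125, 132 and 133 CPM in IRF2_KO. All 3 IRF2_KO libraries were below all 3 Parental libraries. The means were 156 ± 1.20 and 130 ± 4.59 CPM, a log2 fold change of -0.27 (SE 0.04, adjusted p = 6.26e-05). Mdm2 (Entrez 17246; chr10:117688875-117710758), which marks p53 for degradation, was at 88.0, 80.9 and 85.2 CPM in Parental and 102, 89.7 and 95.8 CPM in IRF2_KO. The groups were adjacent without overlapping, and the rise of 1.13-fold (log2 0.18, SE 0.05, adjusted p = 0.0101) was lost without the Parental replicate 2 library (log2 0.14, adjusted p = 0.0692). Mdm4, a relative of MDM2 that masks the activation domain of p53, did not pass (log2 0.05, SE 0.06, adjusted p = 0.580).

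Cdkn2a (Entrez 12578; chr4:89274473-89294619) had the largest change among the 29 tested members. It encodes ARF and, from a different first exon, the kinase inhibitor INK4A, and a count per gene cannot separate the pair. It was at 41.1, 44.4 and 44.2 CPM in Parental and 11.8, 13.8 and 12.2 CPM in IRF2_KO. The highest IRF2_KO library was far under the lowest Parental library, with means of 43.2 ± 1.86 and 12.6 ± 1.06 CPM (log2 -1.78, SE 0.07, adjusted p = 4.66e-13). Zmat3 (Entrez 22401; chr3:32334792-32365665), an RNA-binding zinc finger protein and p53 target, went the other way. It was at 8.15, 10.3 and 9.03 CPM in Parental and 14.9, 16.9 and 14.2 CPM in IRF2_KO, a log2 fold change of 0.75 (SE 0.09, adjusted p = 3.53e-06) with no overlap. Ccng1, the p53-induced cyclin G1 that works with MDM2, rose from 242 ± 10.2 to 296 ± 15.8 CPM (log2 0.29, SE 0.05, adjusted p = 6.23e-05). Ppm1d, the phosphatase WIP1 that reverses damage signalling to p53, fell slightly (log2 -0.19, SE 0.06, adjusted p = 0.0168). That call was lost without Parental replicate 2 (adjusted p = 0.0604) and without IRF2_KO replicate 3 (adjusted p = 0.110). Rps27l did not pass (log2 -0.09, SE 0.05, adjusted p = 0.184). Ahead of the start of several of these genes lie p53 half-sites, described after the arrest genes.

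**Figure D3:**
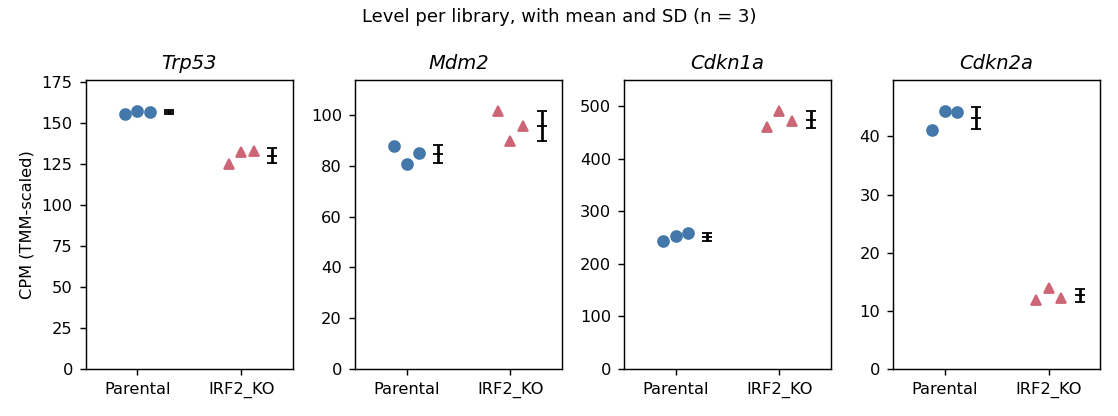
CPM of Trp53, Mdm2, Cdkn1a and Cdkn2a in each library (points), with the mean and SD of 3 libraries (bars); every axis starts at 0. Trp53 and Mdm2 differ by a small step in opposite directions, Cdkn1a goes from 251 ± 7.40 to 474 ± 16.0 CPM, and Cdkn2a from 43.2 ± 1.86 to 12.6 ± 1.06 CPM.

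Genes grouped here under cell cycle arrest were split in direction: of 7, 2 rose, 3 fell and 2 did not pass. That was 71.4% called, beside 47.2% of all genes tested. Cdkn1a (Entrez 12575; chr17:29090979-29100722), the p53 target used most often as a readout of its activity, was at 244, 252 and 258 CPM in Parental and 460, 491 and 471 CPM in IRF2_KO. It rose 1.89-fold with a spread of a few percent in each group (log2 0.91, SE 0.04, adjusted p = 5.78e-12). Whether p53 had a part in this rise was not tested. Btg2 (Entrez 12227; chr1:134074865-134079155), which slows division and recruits mRNA deadenylases, had the largest rise of the tested members. It was at 5.53, 5.16 and 4.90 CPM in Parental and 13.8, 12.6 and 13.7 CPM in IRF2_KO, 2.57-fold higher (log2 1.36, SE 0.09, adjusted p = 7.54e-10). Gadd45b (Entrez 17873; chr10:80930091-80932204), a stress sensor that is also induced by other signals, fell. Its values were 13.5, 12.2 and 13.2 CPM in Parental and 8.36, 8.30 and 8.71 CPM in IRF2_KO, with no overlap (log2 -0.62, SE 0.08, adjusted p = 5.28e-06). Its paralog Gadd45a did not pass (log2 -0.12, SE 0.06, adjusted p = 0.128) but did so without IRF2_KO replicate 2 (log2 -0.18, adjusted p = 0.0286). Ckap2, a spindle protein, fell (log2 -0.19, SE 0.06, adjusted p = 0.0102). Of the polo-like kinases, Plk3 fell (log2 -0.27, SE 0.09, adjusted p = 0.0272) and Plk2 did not pass (log2 0.26, SE 0.14, adjusted p = 0.144). The Plk3 call was lost without Parental replicate 2 (adjusted p = 0.0979), without Parental replicate 3 (0.0937), without IRF2_KO replicate 1 (0.138) and in DESeq2 (0.0685).

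p53 binds DNA as a tetramer on pairs of a 10-letter half-site, so the stretch before each start was read from RefSeq (GRCm38.p6) for letters that match the half-site consensus. The stretch before the upstream start of Cdkn1a is shown because, among the 25 members with such a stretch in the table, it alone held a pair of half-sites at most 13 bases apart. Per gene length Cdkn1a was also the most abundant member in IRF2_KO. Exact matches to the half-site are in capitals, and the sequence runs 5′ to 3′ on the plus strand to the base before the start.
Cdkn1a, chr17:29090729-29090978: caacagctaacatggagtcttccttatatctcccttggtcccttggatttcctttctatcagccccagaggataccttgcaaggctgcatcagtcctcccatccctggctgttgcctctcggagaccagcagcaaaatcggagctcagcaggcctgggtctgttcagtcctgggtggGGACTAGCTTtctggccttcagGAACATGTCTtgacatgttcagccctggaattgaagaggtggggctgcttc
The pair of exact matches is separated by 12 bases, and its first base lies 2863 bases before the downstream start of Cdkn1a. The search allowed no mismatch. Directly after GAACATGTCT, the bases tgacatgttc match the consensus in all but their first letter and were not counted. Which of these stretches p53 uses was not tested. A pair with a spacer of 0 to 13 bases occurred in 24 of 32851 RefSeq windows, or 0.0731%. By gene, it was 20 of 27025, or 0.0740%. A window here is 250 bases before to 50 bases after a start.

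Single half-sites were more widespread. Of the 32 members 25 had at least 1 window, 32 windows in all; Ddb2, Perp, Trp53inp1, Zmat3, Tnfrsf10b, Rrm2b and Xpc had none. At least 1 half-site was found for 12 of the 25 members, in 13 of their 32 windows, beside 8.36% of all windows and 9.55% of all genes. The following stretches are examples from members that rose (Mdm2, Ccng1, Polk) and members that fell (Trp53, Ppm1d). Ckap2 and Ei24, which also fell and had a half-site, are not shown. Each stretch runs 5′ to 3′ on the gene's strand with the half-site in capitals.
Mdm2, chr10:117710915-117710964, minus strand: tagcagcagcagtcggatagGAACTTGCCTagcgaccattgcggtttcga
Ccng1, chr11:40755442-40755491, minus strand: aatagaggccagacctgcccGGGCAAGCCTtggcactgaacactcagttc
Polk, chr13:96519389-96519437, minus strand: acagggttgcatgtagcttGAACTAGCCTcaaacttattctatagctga
Trp53, chr11:69580264-69580313, plus strand: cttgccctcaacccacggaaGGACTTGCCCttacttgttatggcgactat
Ppm1d, chr11:85311102-85311151, plus strand: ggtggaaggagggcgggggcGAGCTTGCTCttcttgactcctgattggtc
The first base of the half-site lies 186 bases before the start in Mdm2, 185 in Ccng1, 231 in Polk (at a start inside the gene), 75 in Trp53 and 132 in Ppm1d. Among members with a window, a half-site was found in 4 of 8 that rose, 4 of 7 that fell, 4 of 8 that did not pass and 0 of 2 that were too low to test. The members that rose with one were Ccng1, Cdkn1a, Mdm2 and Polk, and those that fell were Ckap2, Ei24, Ppm1d and Trp53. An element bound by interferon regulatory factors, GAAANNGAAA on either strand, was found in the window of Plk2 alone among the 25 members. That was 1 of their 32 windows, beside 3.99% of all genes and 3.44% of all windows. Such matches are matches of letters in these windows and say nothing of binding. Sites outside the windows were not searched, so the counts do not cover all p53 sites of a gene.

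Of 5 DNA repair genes 3 rose and 2 did not pass, a called share of 60% beside 47.2% of all genes tested. Polk (Entrez 27015; chr13:96480687-96542579), a polymerase that copies across bulky lesions, was at 23.5, 23.7 and 21.6 CPM in Parental and 37.7, 32.2 and 31.4 CPM in IRF2_KO. The lowest IRF2_KO library stood well above the highest Parental library, and the rise was 1.47-fold (log2 0.56, SE 0.07, adjusted p = 5.03e-06). Ddb2, the damage sensor of global nucleotide excision repair, rose from 21.8 ± 0.997 to 26.8 ± 1.37 CPM (log2 0.30, SE 0.06, adjusted p = 0.000699). Its gene model overlaps Acp2, which had 11329 reads in all libraries, and whether counting used strand is not given in the sources used here, so reads of the pair may be mixed. Ercc5, the endonuclease that cuts 3′ of a lesion, rose by a similar step (log2 0.29, SE 0.07, adjusted p = 0.00289). Xpc, which works beside DDB2 in finding lesions, did not pass (69.1 ± 1.93 and 66.7 ± 2.08 CPM; adjusted p = 0.412). Rrm2b, the p53-induced subunit of ribonucleotide reductase, did not pass either (log2 0.14, SE 0.09, adjusted p = 0.213).

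Of the 4 members that act in metabolism and redox balance, 1 rose, or 25% called beside 47.2% of all genes tested. Sesn2, a leucine sensor that restrains the growth kinase complex mTORC1, rose from 63.9 ± 1.60 to 82.3 ± 2.12 CPM (log2 0.37, SE 0.05, adjusted p = 3.84e-06), with no overlap between groups. Its paralog Sesn1 did not pass (log2 0.08, SE 0.06, adjusted p = 0.320). Tigar, a phosphatase that turns glucose use away from glycolysis, was at 85.3, 84.0 and 85.1 CPM in Parental and 85.5, 85.5 and 88.6 CPM in IRF2_KO. Those groups did not overlap, yet the step was small and did not pass (log2 0.03, SE 0.04, adjusted p = 0.601). Dcxr, a carbonyl reductase, did not pass (log2 -0.01, SE 0.08, adjusted p = 0.949).

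Among the 8 members that act in cell death, 5 were testable, of which 3 rose and 1 fell. Called members were 80% of those tested, beside 47.2% of all genes tested. Fas (Entrez 14102; chr19:34290647-34327775), the receptor through which Fas ligand triggers apoptosis, was at 3.46, 3.92 and 3.43 CPM in Parental and 7.89, 7.01 and 6.24 CPM in IRF2_KO. Every IRF2_KO library was well above every Parental library, 1.96-fold on average (log2 0.97, SE 0.12, adjusted p = 2.37e-06). Trp53inp1 (Entrez 60599; chr4:11156441-11174379), a cofactor of p53 that also acts in autophagy, was at 33.1, 31.1 and 26.7 CPM in Parental and 48.8, 38.3 and 42.6 CPM in IRF2_KO. It rose 1.43-fold without overlap, although its libraries were among the more spread of the abundant members (log2 0.51, SE 0.08, adjusted p = 6.44e-05). Tnfrsf10b, the receptor of the death ligand TRAIL, was low, at 1.34 to 1.45 CPM in Parental and 1.66 to 2.20 CPM in IRF2_KO. Its call was at the threshold (log2 0.44, SE 0.18, adjusted p = 0.0495) and was lost under 10 of 13 alternatives. Over all 13, kept calls included, the adjusted p ran from 0.0431 to 0.201. The library left out with the greatest effect was IRF2_KO replicate 2 (log2 0.33, adjusted p = 0.201); without Parental replicate 1, 2 or 3 the adjusted p was 0.117, 0.0761 or 0.102, and without IRF2_KO replicate 1 it was 0.0735. Ei24, a membrane protein of the endoplasmic reticulum with a role in autophagy, fell on average from 127 ± 4.81 to 114 ± 4.88 CPM (log2 -0.16, SE 0.05, adjusted p = 0.0105), a call lost without IRF2_KO replicate 3 (adjusted p = 0.0757). Aen, a p53-induced nuclease, did not pass (log2 -0.10, SE 0.06, adjusted p = 0.217) but did without IRF2_KO replicate 2 (log2 -0.15, adjusted p = 0.0456). Eda2r had 1 to 4 reads in the Parental libraries and at most 1 in IRF2_KO, Perp 1 to 2 and at most 1, and Phlda3 at most 1 and 0; these 3 were too low to test.

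Within a group the members varied little between libraries. The median coefficient of variation over the 29 genes was 4.56% in Parental (0.766% to 13.1%) and 6.02% in IRF2_KO (2.08% to 14.2%). No library was highest or lowest of its group throughout: IRF2_KO replicate 1 was the highest of its group for 12 members, replicate 2 for 11 and replicate 3 for 6. Summed over the 29 tested members and the 3 too low to test, the level was 1619 to 1646 CPM in Parental and 1880 to 1916 CPM in IRF2_KO. Without Cdkn1a these sums were 1363 to 1403 and 1397 to 1456 CPM and overlapped between groups.

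Other genes of the pathway, from 3 further lists, were also mixed. Of 18 upstream kinases, cofactors and relatives of p53, 16 were testable, 2 rose, 8 fell and 6 did not pass, with a median log2 fold change of -0.12. The called share was 62.5%, beside 47.2% of all genes tested. Hipk2, a kinase that phosphorylates p53 for the death response, fell from 84.3 ± 5.24 to 36.2 ± 1.64 CPM (log2 -1.22, SE 0.06, adjusted p = 5.51e-12). Sirt1, a deacetylase of p53, fell from 33.1 ± 2.14 to 25.5 ± 2.87 CPM (log2 -0.37, SE 0.07, adjusted p = 0.000449). Transcripts of the related ASPP genes rose. Ppp1r13b, whose protein steers p53 to death genes, went from 0.834 ± 0.147 to 2.01 ± 0.233 CPM (log2 1.27, SE 0.20, adjusted p = 5.33e-05). Ppp1r13l, the inhibitory member, rose from 18.4 ± 1.09 to 24.1 ± 1.65 CPM (log2 0.39, SE 0.07, adjusted p = 0.000167). The p53 relative Trp63 had 8 reads in Parental and 2 in IRF2_KO, and Trp73 had 0 and 1.

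Of 25 further p53 targets 21 were testable, 6 rose, 5 fell and 10 did not pass (median log2 0.05). The called share of 52.4% was close to the 47.2% of all genes. Without Parental replicate 2, or without IRF2_KO replicate 3, the number that fell was 3. Rap2b, a small GTPase, rose from 26.9 ± 1.21 to 40.5 ± 2.05 CPM (log2 0.59, SE 0.06, adjusted p = 2.13e-07). Dram1, a lysosomal protein that promotes autophagy, rose from 39.7 ± 1.61 to 53.3 ± 1.13 CPM (log2 0.43, SE 0.05, adjusted p = 2.17e-06). Tap1, a peptide transporter of antigen presentation that interferon signalling also controls, fell from 21.9 ± 1.68 to 5.90 ± 0.463 CPM (log2 -1.89, SE 0.09, adjusted p = 6.09e-12). Cyfip2, a regulator of the actin cytoskeleton, fell from 447 ± 6.57 to 333 ± 5.74 CPM (log2 -0.42, SE 0.04, adjusted p = 7.88e-08).

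Of 15 cell cycle genes known to be repressed by p53 through p21, 7 fell, 1 rose and 7 did not pass, each by less than 1.5-fold. Their median log2 fold change was -0.13. The called share, 53.3%, was close to that of all genes (47.2%), and the share whose groups did not overlap was 46.7%, beside 54.0% of all genes. Mybl2, a transcription factor of late cell cycle genes, fell from 134 ± 7.20 to 101 ± 2.49 CPM (log2 -0.40, SE 0.05, adjusted p = 2.13e-06). Mcm5, a subunit of the replicative helicase, fell from 493 ± 22.6 to 430 ± 20.2 CPM (log2 -0.20, SE 0.05, adjusted p = 0.00163). Bub1, a mitotic checkpoint kinase, was the 1 gene that rose, from 178 ± 7.75 to 253 ± 11.0 CPM (log2 0.50, SE 0.05, adjusted p = 7.99e-08).

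**Figure D4:**
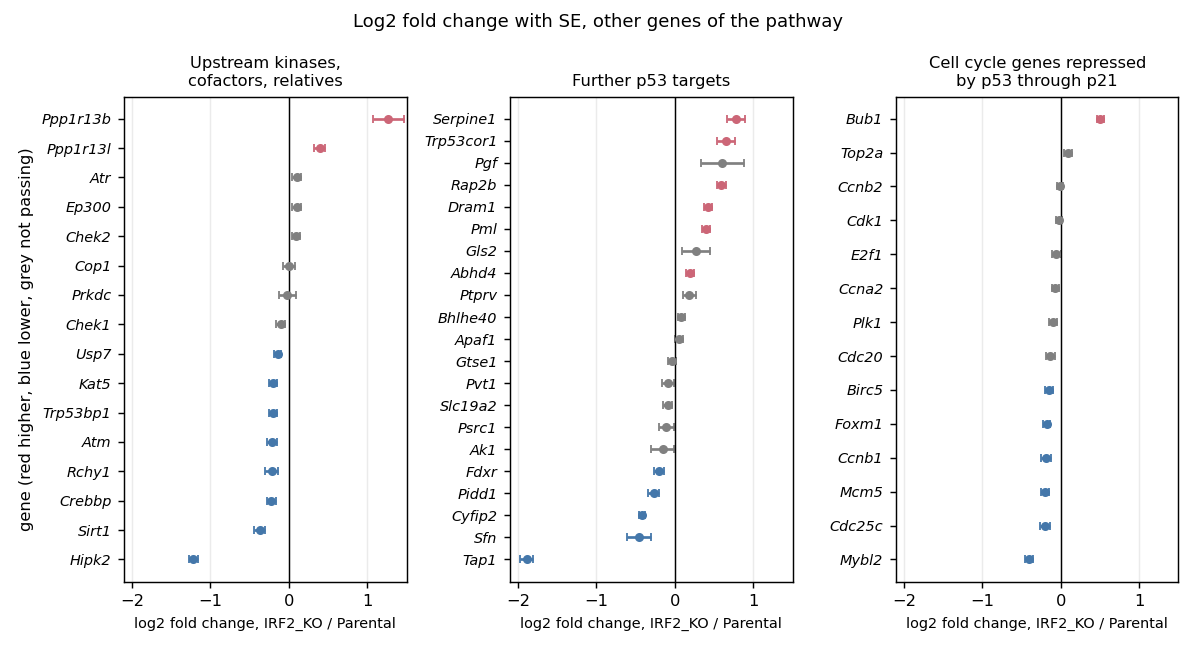
Log2 fold change (IRF2_KO over Parental) with its SE for testable genes of 3 further lists; red genes passed as higher, blue as lower, and grey did not pass. The widest changes are Tap1 (-1.89), Hipk2 (-1.22) and Ppp1r13b (1.27), and the cell cycle genes plotted lie within a narrow range from -0.40 to 0.50.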

How the data were processed

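For each gene the authors deposited a read count and a size-factor-adjusted RPKM, per the file headers. The submitters' processing notes name GSNAP and the build GRCm38; which annotation was counted, and whether by strand, is not given in the sources used here. The labels name both polyA RNA and a stranded total RNA kit, so the RNA fraction is unsettled. Counts were tested in R 4.3.3 with edgeR 4.0.16 (filterByExpr, TMM, robust quasi-likelihood F-test, two-sided, Benjamini-Hochberg adjustment) over 13353 genes, with groups taken from the labels. The SE was computed as the absolute log2 fold change over the root of the F statistic. Over 11860 genes the deposited RPKM were the counts rescaled, with 1 factor for each library. Mean chi-square per gene was 2.78 to 10.1 within groups, so no library was treated as a repeat of another. Replicates were numbered in record order and pair nothing. Symbols, coordinates and start windows came from RefSeq GRCm38.p6. The scripts were tested on simulated data.

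The members and lists were chosen with earlier results of these data known. Values in every library are given for Trp53, Mdm2, Cdkn1a and Cdkn2a and for called members with an absolute log2 fold change of at least 0.5 and a mean of at least 2 CPM. Of each further list, up to 4 called genes with the smallest adjusted p are named; some genes that the rule or a list holds are counted but not reported here by name. Tigar was given in every library after its values were seen. Reads of overlapping genes (Gadd45a with E230016M11Rik, Plk3 with Tctex1d4) may be mixed. Alternatives were other normalizations (RLE size factors, library size alone), tools (DESeq2 1.42.0, limma-voom in limma 3.58.1), filters, thresholds and each library left out.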

Additional observations from a re-analysis of the deposited data

How the results depend on the processing

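Of the 29 tested p53 genes, 18 kept their call and direction under all 13 alternatives. Of the 19 called, 13 stayed called throughout and 6 lost the call at least once (Ckap2, Ei24, Mdm2, Plk3, Ppm1d, Tnfrsf10b). Leaving out each library in turn gave 10 to 12 members higher and 5 to 9 lower. Further targets were 6 to 7 higher and 3 to 5 lower. Over all genes tested, the same fits gave 2717 to 3158 higher and 2539 to 3099 lower. At an adjusted p under 0.01, 10 members were higher and 3 lower, and 6 further targets were higher and 3 lower. At that threshold 2468 of all genes tested were higher and 2299 lower. Requiring 1.5-fold left 1136 genes higher and 511 lower in all, 4 members higher and 2 lower, and 3 further targets higher and 1 lower. Signs changed in genes that did not pass: Tigar was at log2 -0.0006 with library size alone, Dcxr at 0.0004 with RLE size factors and at -0.0794 to 0.0686 with a library left out, and Mdm4 at -0.0258 to 0.1247 with a library left out. The cause was not tested. No paired analysis was possible because the labels carry no replicate numbers. Depth limits Eda2r, Perp and Phlda3, which had at most 4 reads in any library.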
